A study of Mus musculus with 48 samples.

Results

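The 9 genes described here encode subunits of the superoxide-producing NADPH oxidases (Cybb, Cyba, Ncf1, Ncf4, Nox4 and Nox1) and the 3 superoxide dismutases (Sod1, Sod2 and Sod3). They were chosen by name out of the 18782 genes in the table. Of these 9, 8 had enough counts to be tested. RNA was sequenced from the thoracic aorta of 48 wild-type C57BL/6J mice, with 1 library per mouse. The study's methods name lesioned segments as the RNA source, without saying which segment was taken where no lesion had formed. Mice drank plain water (Con) or water with 0.4% β-aminopropionitrile (BAPN, a lysyl oxidase inhibitor that weakens the arterial wall) for 28 days from 3 weeks of age, and the treated survivors were divided by whether a dissection or aneurysm had formed (AAD) or not (NonAD). The groups were male controls (MaCon, n = 10), treated males without a lesion (MaNonAD, n = 4) and with one (MaAAD, n = 7), female controls (FeCon, n = 10), and treated females without a lesion (FeNonAD, n = 8) and with one (FeAAD, n = 9). Outcome was read at the end of treatment, so NonAD and AAD differ in outcome and not in an assigned treatment, and mice that died of rupture are not among them.

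NADPH oxidases pass electrons from NADPH across a membrane to oxygen and so make superoxide or hydrogen peroxide. In phagocytes the catalytic subunit NOX2 (Cybb) sits in the membrane with p22phox (Cyba) and is switched on when cytosolic subunits, among them p47phox (Ncf1) and p40phox (Ncf4), and the GTPase Rac2 move to it. In the arterial wall NOX4 (Nox4) also pairs with p22phox but needs no cytosolic subunit, and NOX1 (Nox1) is known from cultured smooth muscle. Superoxide is converted to hydrogen peroxide by the copper-zinc enzyme of the cytosol (Sod1), the manganese enzyme of mitochondria (Sod2) and the secreted copper-zinc enzyme (Sod3), which binds the matrix of the vessel wall.

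In the GRCm38 annotation of GENCODE, the 9 genes lie on 7 chromosomes: Cybb at chrX:9435252-9487771 and Nox1 at chrX:134086421-134221956, both on the minus strand, Cyba at chr8:122424776-122432930 (minus), Ncf1 at chr5:134220053-134229625 (minus), Sod3 at chr5:52363791-52371418 (plus), Ncf4 at chr15:78244801-78262580 (plus), Nox4 at chr7:87246096-87398710 (plus), Sod1 at chr16:90220754-90226329 (plus) and Sod2 at chr17:13006846-13040063 (plus). The 250 bases before the RefSeq start of 4 members are shown because Cybb, Cyba and Ncf1 encode parts of one complex, while Nox4 is the wall gene they are set against. They are from GRCm38.p6, written 5′ to 3′ on the gene's own strand (chrX:9469325-9469574, minus; chr8:122432941-122433190, minus; chr5:134229626-134229875, minus; chr7:87246399-87246648, plus), and capitals mark CCAAT or GGGCGG on either strand.
Cybb: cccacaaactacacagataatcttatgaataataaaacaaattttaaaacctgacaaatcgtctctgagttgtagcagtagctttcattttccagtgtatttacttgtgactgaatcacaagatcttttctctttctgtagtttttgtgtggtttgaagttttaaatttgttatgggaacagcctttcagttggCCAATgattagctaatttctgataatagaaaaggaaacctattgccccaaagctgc
Cyba: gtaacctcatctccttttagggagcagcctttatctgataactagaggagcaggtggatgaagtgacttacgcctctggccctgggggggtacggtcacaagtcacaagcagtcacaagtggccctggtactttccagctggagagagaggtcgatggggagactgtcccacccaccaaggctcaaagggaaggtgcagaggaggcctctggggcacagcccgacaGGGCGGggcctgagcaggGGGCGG
Ncf1: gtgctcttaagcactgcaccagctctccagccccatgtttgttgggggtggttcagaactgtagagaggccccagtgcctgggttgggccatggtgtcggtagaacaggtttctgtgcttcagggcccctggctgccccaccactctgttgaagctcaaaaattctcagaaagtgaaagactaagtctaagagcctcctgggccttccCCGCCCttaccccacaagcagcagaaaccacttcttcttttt
Nox4: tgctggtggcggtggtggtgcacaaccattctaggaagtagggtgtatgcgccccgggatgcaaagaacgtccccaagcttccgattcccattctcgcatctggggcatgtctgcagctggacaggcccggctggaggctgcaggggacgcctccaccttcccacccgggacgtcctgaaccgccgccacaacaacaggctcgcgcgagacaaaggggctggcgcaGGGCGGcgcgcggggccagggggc
Cybb held 1 CCAAT, at bases -56 to -52 before the start, a sequence present in 33.8% of 32851 mouse promoter windows of this length. Cyba held GGGCGG at -24 to -19 and at -6 to -1, Nox4 at -24 to -19, and Ncf1 held its reverse complement at -42 to -37, against 32.7% of all windows. Neither TATAAA (12.4% of windows) nor GAGGAA (23.3%) was found on either strand of these 4.

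Library totals ran from 13548003 to 17281262 counts (median 15681334). The 10 smooth muscle markers were detected in every group and summed to between 12240 and 61920 CPM over the 48 libraries. CPM is a gene's counts scaled to a common library size, here after TMM normalization. The 8 fibroblast markers summed to at least 9158 CPM in every library and the 8 endothelial markers to at least 297. These are cell types of an arterial wall, but the sums do not single out the thoracic aorta. Summed levels of 12 macrophage markers were 459 to 750 CPM in MaCon, 672 to 1002 in MaNonAD, 1038 to 4061 in MaAAD, 493 to 847 in FeCon, 530 to 1178 in FeNonAD and 816 to 6008 in FeAAD. The 10 neutrophil markers summed to at most 13.1 CPM in any control library and at most 9.34 in any NonAD library, but to 891 in FeAAD5, 243 in MaAAD7 and 203 in FeAAD9. MaAAD1 carried the most adipocyte RNA (3801 CPM over 6 markers), and FeAAD2 the most haemoglobin RNA (26920 CPM over 5 red cell markers). A marker sum in whole tissue cannot be split into the number of cells and the RNA per cell, which cannot be told apart here, and this holds for each member below.

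Compared per kilobase of the longest transcript, the dismutases and the wall subunits were far more abundant in control aorta than the phagocyte-specific ones. In FeCon the median levels per length were 459 CPM per kb for Sod3, 247 for Sod1, 79.5 for Nox4, 61.5 for Cyba, 14.9 for Sod2, 3.72 for Ncf1, 1.15 for Cybb and 1.00 for Ncf4. The ranges over the 10 FeCon libraries overlapped between the neighbours Sod3 and Sod1, Nox4 and Cyba, and Cybb and Ncf4, and did not overlap between Sod1 and Nox4, Cyba and Sod2, Sod2 and Ncf1, or Ncf1 and Cybb. MaCon gave the same order of medians apart from Cybb, at 1.00 CPM per kb, and Ncf4, at 1.14, which changed places. In FeAAD the medians were 363 CPM per kb for Sod3, 201 for Sod1, 84.0 for Cyba, 63.4 for Nox4, 17.3 for Sod2, 12.9 for Ncf1, 6.01 for Cybb and 4.76 for Ncf4. Cyba thus stood above Nox4 by median in FeAAD and below it in FeCon, with overlapping ranges in both groups.

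**Figure D1:**
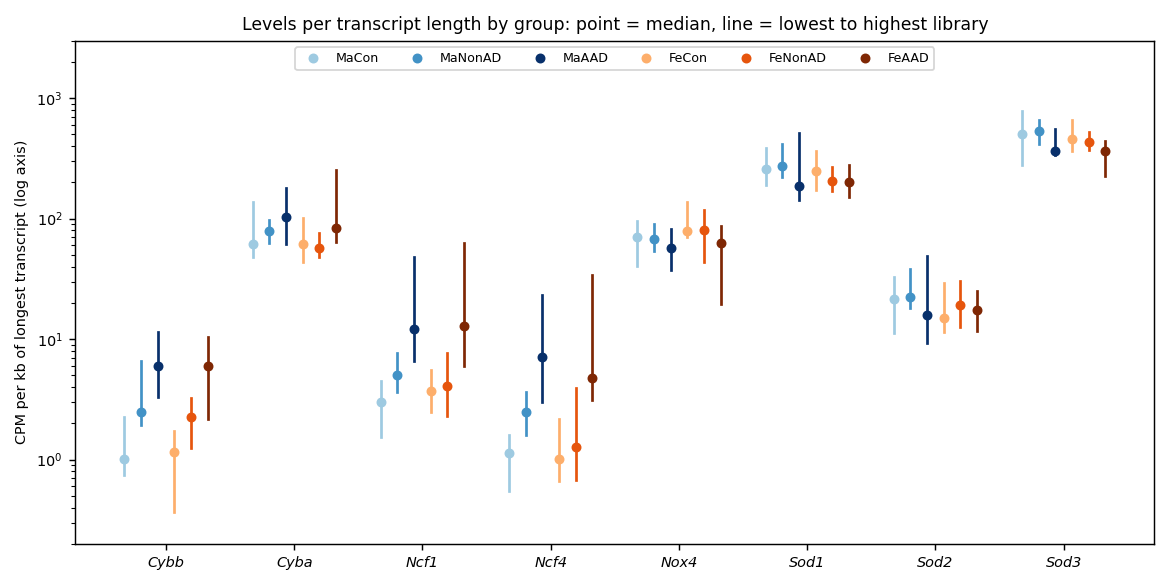
Level per transcript length (CPM per kb, log axis) of the 8 tested members in the 6 groups, with a point at the group median and a line from the lowest to the highest library. Sod3 and Sod1 lie highest, and the group medians of Cybb, Ncf1 and Ncf4 are 1.00 to 5.03 CPM per kb in controls and NonAD and 4.76 to 12.9 in AAD.

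Nox1 was close to absent. It had 25 counts in all 48 libraries together, 0 in 31 of them and at most 3 in any one. A count of 0 allows a true value of up to 3 counts (0.174 to 0.221 CPM, by library), so no fold was computed and no change was detectable at this depth. The largest group sum was 7 counts, over the 10 FeCon libraries, and MaAAD held 6 over 7 libraries. Its partners Noxa1 (6 counts in all) and Nox3, a further catalytic subunit (1 count), were also under the filter.

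The comparison of AAD with Con asks which members differ where a lesion, a dissection or an aneurysm, has formed. In females 6 of the 8 tested members passed (adjusted p under 0.05, edgeR quasi-likelihood test, Benjamini-Hochberg over 14431 genes), where 44.4% of all tested genes passed. The 4 phagocyte subunits rose, as did 23.8% of all genes, and Nox4 and Sod3 fell, as did 20.6%. In males 3 passed, all of them upward (Cybb, Ncf1 and Ncf4), against 35.0% of all genes, 18.9% of them upward. The median log2 fold change of the 4 phagocyte subunits was 2.34 in females and 2.45 in males, while that over all genes tested was 0.00 and -0.03.

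Among the catalytic members, Cybb alone was called higher in any comparison. Its lowest, median and highest levels were 1.73, 5.46 and 8.26 CPM in FeCon, 5.96, 10.7 and 15.5 in FeNonAD, and 10.3, 28.5 and 49.8 in FeAAD. In males they were 3.54, 4.77 and 10.8 CPM in MaCon and 15.7, 28.5 and 55.0 in MaAAD, and the 4 MaNonAD libraries held 31.6, 9.23, 12.9 and 10.8. Every AAD library thus stood above every control library of its sex, a separation that 3.63% of all genes showed upward in females and 6.14% in males, and also above every control of the other sex except FeAAD9, at 10.3 CPM, which was below the highest MaCon. The fitted rise was 5.35-fold in FeAAD against FeCon (log2 2.42, SE 0.29, adjusted p = 5.9e-09 by edgeR) and 5.03-fold in MaAAD against MaCon (log2 2.33, SE 0.29, adjusted p = 4.95e-08 by edgeR).

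Cybb also passed in treated aortas without a lesion, although the male call depended on single libraries. In FeNonAD it was the only member that passed (log2 1.05, SE 0.29, 2.06-fold, adjusted p = 0.0117 by edgeR), where 14.5% of all genes passed and 6.87% rose, and 7 of the 8 FeNonAD libraries lay above every FeCon library. In MaNonAD it was again the only member to pass (log2 1.34, SE 0.34, 2.53-fold, adjusted p = 0.047 by edgeR), against 0.624% of all genes and 0.443% upward, with 2 of 4 libraries above every MaCon library. MaNonAD1, at 31.6 CPM, was the highest by far, and without it the log2 difference was 0.78 (adjusted p = 0.755 by edgeR). The male call was also lost, at adjusted p between 0.0501 and 0.099 by edgeR, without any one of MaNonAD3, MaCon5 to MaCon10, MaAAD4 to MaAAD6, FeCon3, FeCon6, FeCon8, FeNonAD2 or FeNonAD5. A fit with the replicate number as a block lost it as well (log2 1.29, adjusted p = 0.104 by edgeR), although those numbers did not pair the libraries. Beside Cybb, the summed macrophage markers of FeNonAD and FeCon overlapped, and 1 of 12 macrophage markers rose in FeNonAD (edgeR). The macrophage list had a median log2 difference of 0.35 in FeNonAD and 0.73 in MaNonAD, and the 8 general leukocyte markers 0.58 and 0.97, beside medians over all genes of 0.00 and -0.02. No marker of either list passed in MaNonAD, where 6 and 4 had an unadjusted p under 0.05 (edgeR). MaNonAD1 had the highest macrophage (1002 CPM) and leukocyte (321 CPM) sums and the lowest smooth muscle sum (21960 CPM) of the 4 MaNonAD libraries. Adgre1, which encodes the macrophage protein F4/80, had a log2 difference of 0.70 in FeNonAD (adjusted p = 0.0813 by edgeR) and 0.88 in MaNonAD (adjusted p = 0.242 by edgeR). The 5 B cell markers, from another cell type that uses the NOX2 complex, summed to 7.32 to 20.5 CPM in MaNonAD and 0.856 to 5.50 in MaCon, and 4 of 5 rose there, against 1 of 5 in FeNonAD (edgeR). The 10 smooth muscle markers had a median log2 difference of -0.39 in FeNonAD and -0.50 in MaNonAD. For the 5 red cell markers it was 0.51 and 2.08. Of both lists only 2 smooth muscle markers passed (edgeR), lower in FeNonAD, where 7.66% of all genes fell. The part of these lists in the Cybb values was not tested.

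Within treated females, FeAAD exceeded FeNonAD in Cybb by log2 1.37 (SE 0.29, adjusted p = 0.000749 by edgeR), and 7 of 9 FeAAD libraries were above every FeNonAD library. In males the difference between MaAAD and MaNonAD was log2 0.99 (SE 0.38, adjusted p = 0.138 by edgeR) and did not pass, with 3 of 7 MaAAD libraries above all 4 MaNonAD libraries. Without MaNonAD1 this difference was 1.55 (adjusted p = 0.0337 by edgeR).

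**Figure D2:**
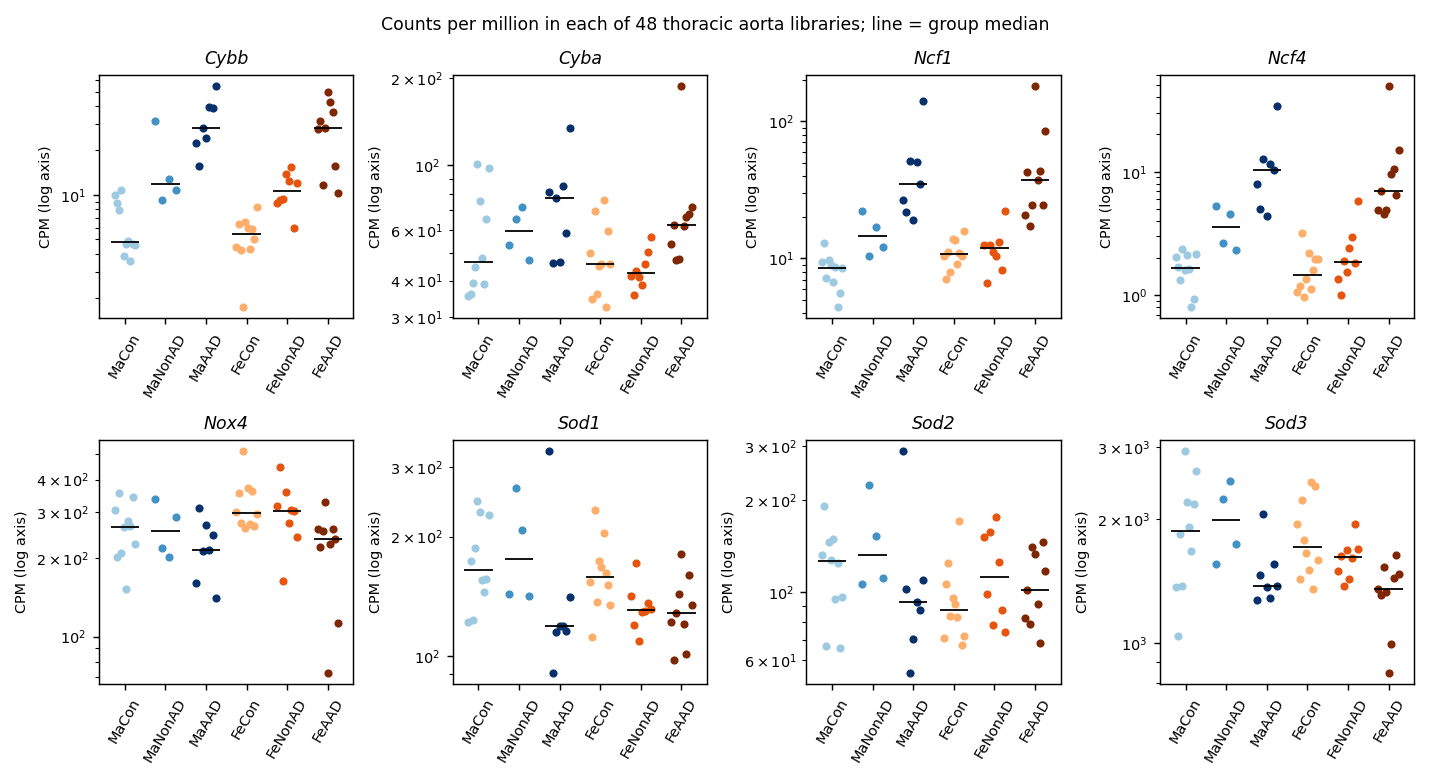
Level of each tested member (CPM, log axis) in each of the 48 libraries by group, with a line at the group median. Every AAD point for Cybb, Ncf1 and Ncf4 lies above the control points of the same sex, whereas the groups of Nox4 and of the 3 dismutases overlap.

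The cytosolic subunits Ncf1 and Ncf4 rose in AAD too, with a wider spread there than Cybb. Ncf1, which brings the cytosolic subunits to the membrane, had a lowest, median and highest level of 7.09, 10.7 and 15.9 CPM in FeCon, 6.59, 11.9 and 22.1 in FeNonAD, and 17.3, 37.2 and 182 in FeAAD. In MaCon the 3 values were 4.41, 8.58 and 13.0 CPM and in MaAAD 19.1, 35.1 and 139, with 22.2, 10.5, 16.8 and 12.2 in the MaNonAD libraries. The AAD and control ranges did not overlap in either sex. Of all genes, 3.63% were apart upward in females and 6.14% in males. The top values were those of FeAAD5, MaAAD7 and, at 85.6 CPM, FeAAD9. Ncf1 was 4.81-fold higher in FeAAD than in FeCon (log2 2.27, SE 0.34, adjusted p = 6.33e-07 by edgeR) and 5.96-fold higher in MaAAD than in MaCon (log2 2.58, SE 0.36, adjusted p = 2.71e-07 by edgeR). FeNonAD differed from FeCon by log2 0.13 (approximate 95% interval -0.55 to 0.82), which did not pass.

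Ncf4, a phosphoinositide-binding subunit of the cytosolic complex, also rose in AAD. It ranged from 0.969 to 3.17 CPM in FeCon (median 1.47), 0.998 to 5.80 in FeNonAD (median 1.86) and 4.58 to 49.7 in FeAAD (median 6.96). In MaCon it ranged from 0.802 to 2.36 CPM (median 1.67) and in MaAAD from 4.43 to 33.9 (median 10.4), and the MaNonAD libraries held 5.33, 2.67, 4.54 and 2.34. Control and AAD libraries were again fully apart in both sexes (all genes upward, 3.63% in females and 6.14% in males). The fold was 7.48 in FeAAD against FeCon (log2 2.90, SE 0.39, adjusted p = 9.27e-08 by edgeR) and 7.32 in MaAAD against MaCon (log2 2.87, SE 0.41, adjusted p = 3.76e-07 by edgeR). These were the highest folds of the 8 tested members, but without FeAAD5 the female value was log2 2.23 (adjusted p = 4.65e-07 by edgeR), below that of Cybb at 2.28.

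Against treated females without a lesion, 4 members rose in FeAAD (18.2% of all genes passed in this comparison and 13.2% rose). Besides Cybb they were Ncf1 (log2 2.13, SE 0.37, adjusted p = 9.96e-05 by edgeR), Ncf4 (log2 2.41, SE 0.42, adjusted p = 9.96e-05 by edgeR) and Cyba. Leaving out FeAAD5 lowered the Ncf4 difference to log2 1.74 (adjusted p = 0.000799 by edgeR). None of the 8 passed in MaAAD against MaNonAD, where 0.409% of all genes did and 4 members had an unadjusted p under 0.05 in the edgeR fit. These were Ncf1 (log2 1.67, SE 0.48, adjusted p = 0.0545 by edgeR), Ncf4 (log2 1.72, SE 0.54, adjusted p = 0.0686 by edgeR), Cybb and Sod3 (log2 -0.44, SE 0.20, adjusted p = 0.215 by edgeR). DESeq2 called 2 of them, Ncf1 (log2 1.68, adjusted p = 0.0103) and Ncf4 (log2 1.73, adjusted p = 0.0221), and 9 of the 48 fits that left out 1 library called between 1 and 3 members. Those 9 were the fits without MaNonAD1, MaAAD1, MaAAD2, MaAAD4, FeNonAD8, FeAAD3, FeAAD4, FeAAD5 or FeAAD8. In MaNonAD against MaCon, Ncf4 (log2 1.15, SE 0.48, adjusted p = 0.293 by edgeR) and Ncf1 (log2 0.91, SE 0.42, adjusted p = 0.361 by edgeR) did not pass. A fit to these 2 groups alone put Ncf4 at adjusted p = 0.0437 by edgeR.

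Cyba, the membrane partner that NOX2 and NOX4 share, moved least among the 4 in AAD against Con. Its lowest, median and highest levels were 32.4, 45.8 and 75.9 CPM in FeCon, 35.7, 42.5 and 56.8 in FeNonAD, and 47.2, 62.5 and 189 in FeAAD. In males they were 35.6, 46.3 and 101 CPM in MaCon and 45.9, 77.4 and 135 in MaAAD, with 53.1, 65.4, 72.0 and 47.2 in MaNonAD. The ranges overlapped in each comparison, and 1 FeAAD library, FeAAD5, and 1 MaAAD library, MaAAD7, stood above all controls of their sex. Cyba rose in FeAAD against FeCon (log2 0.59, SE 0.23, adjusted p = 0.0314 by edgeR) and against FeNonAD (log2 0.75, SE 0.24, adjusted p = 0.0252 by edgeR). Both calls rested on FeAAD5, without which the differences were 0.28 (adjusted p = 0.276 by edgeR) and 0.44 (adjusted p = 0.191 by edgeR). They were also lost in fits to the compared groups alone (adjusted p = 0.0521 and 0.0515 by edgeR), the first without FeCon2, FeCon4 or FeCon8 (adjusted p up to 0.0583 by edgeR) and the second without FeNonAD2 (adjusted p = 0.0506 by edgeR). In males the difference was log2 0.38 (SE 0.24, adjusted p = 0.229 by edgeR).

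Nox4, the oxidase of the vessel wall, did not rise in any comparison. It ran from 262 to 516 CPM in FeCon (median 299), 163 to 446 in FeNonAD (median 304) and 72.8 to 328 in FeAAD (median 238). In males it ran from 152 to 357 CPM in MaCon (median 264) and 141 to 311 in MaAAD (median 216), and the MaNonAD libraries held 337, 219, 202 and 288. In FeAAD 8 of 9 libraries were below every FeCon library, the exception being FeAAD4, while in MaAAD only MaAAD7 was below every MaCon library. Nox4 fell by 0.58 on the log2 scale in FeAAD against FeCon (SE 0.19, adjusted p = 0.013 by edgeR). The lowest libraries were FeAAD5, at 72.8 CPM, and FeAAD9, at 113, and the fall still passed without either one, with a log2 value of -0.46 (adjusted p = 0.032 by edgeR) without FeAAD5 and -0.49 (adjusted p = 0.034 by edgeR) without FeAAD9. MaAAD differed from MaCon by log2 -0.23 (approximate 95% interval -0.63 to 0.18) and FeAAD from FeNonAD by -0.46 (adjusted p = 0.106 by edgeR), neither of which passed, although the latter did without FeAAD4 (log2 -0.55, adjusted p = 0.0471 by edgeR). Beside Nox4, the 10 smooth muscle markers all fell in FeAAD against FeCon, with a median log2 fold change of -1.03, and all 10 fell in MaAAD against MaCon, with a median of -1.06, where 20.6% and 16.1% of all genes fell. Of the 8 fibroblast markers 3 rose and 2 fell in females and 4 rose in males (edgeR). Their median log2 fold change was -0.15 in females and 0.27 in males. Of all genes 23.8% rose and 20.6% fell in females, and 18.9% rose in males. The fibroblast sums did not overlap, at 14310 to 28280 CPM in FeAAD against 9158 to 13770 in FeCon and 14390 to 27080 in MaAAD against 9928 to 13110 in MaCon. Whether either list has a part in the fall of Nox4 was not tested.

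**Figure D3:**
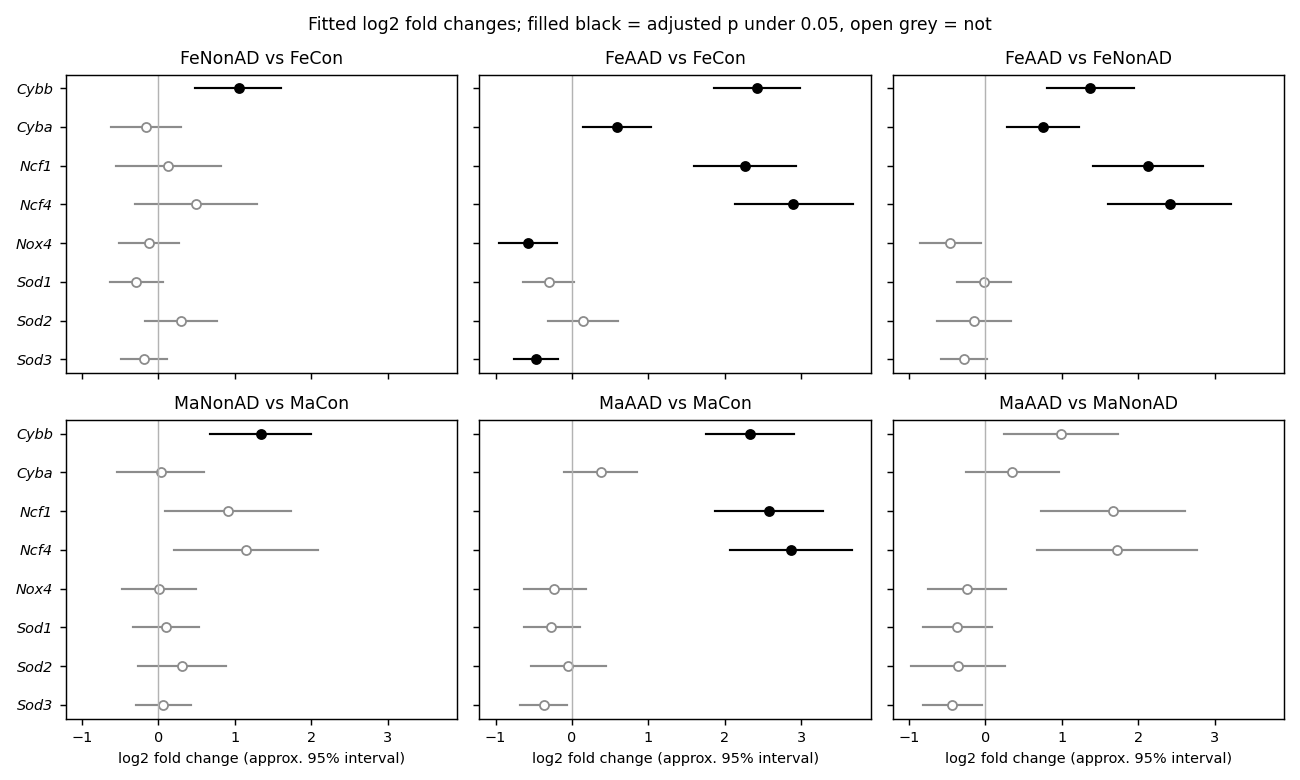
Fitted log2 fold change of the 8 tested members in the 6 comparisons within a sex, with approximate 95% intervals (filled black, adjusted p under 0.05; open grey, not). Cybb, Ncf1 and Ncf4 lie between 2.27 and 2.90 in both comparisons of AAD with Con, and Nox4 lies at or below 0.01 in all 6 panels.

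Set against Nox4 in the same library, the 4 phagocyte subunits had higher medians in AAD than in the controls of the same sex. The log2 difference of Cybb minus Nox4, each taken as log2(CPM + 1) without length scaling, had a median of -5.69 in FeCon (-7.56 to -5.00), -4.48 in FeNonAD (-5.45 to -3.99) and -3.17 in FeAAD (-4.34 to -0.54). In males the median was -5.34 in MaCon (-5.92 to -4.16), -4.15 in MaNonAD (-4.62 to -3.38) and -2.77 in MaAAD (-4.22 to -1.34). For Ncf1 minus Nox4 the medians were -4.70, -4.57 and -2.58 in FeCon, FeNonAD and FeAAD and -4.79, -4.06 and -2.53 in the male groups in the same order. The Ncf1 difference reached 1.31 in FeAAD5 and -0.02 in MaAAD7. Before scaling by length, FeAAD5 was the only library in which Ncf1 or Cyba had more CPM than Nox4. Scaled by length, the Cyba median was above that of Nox4 in MaNonAD, at 79.6 against 67.6 CPM per kb. It was also above in MaAAD (104 against 57.45) and FeAAD (84.0 against 63.4), and below in MaCon, FeCon and FeNonAD. For Cyba minus Nox4 the medians were -2.62, -2.75 and -1.86 in FeCon, FeNonAD and FeAAD, so that FeNonAD was not above FeCon, and -2.41, -2.16 and -1.45 in the male groups. For Ncf4 minus Nox4 they were -6.93, -6.53 and -4.80 in females and -6.65, -5.82 and -4.17 in males. These differences are given as a description, without a test, and a higher value can come from either gene.

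**Figure D4:**
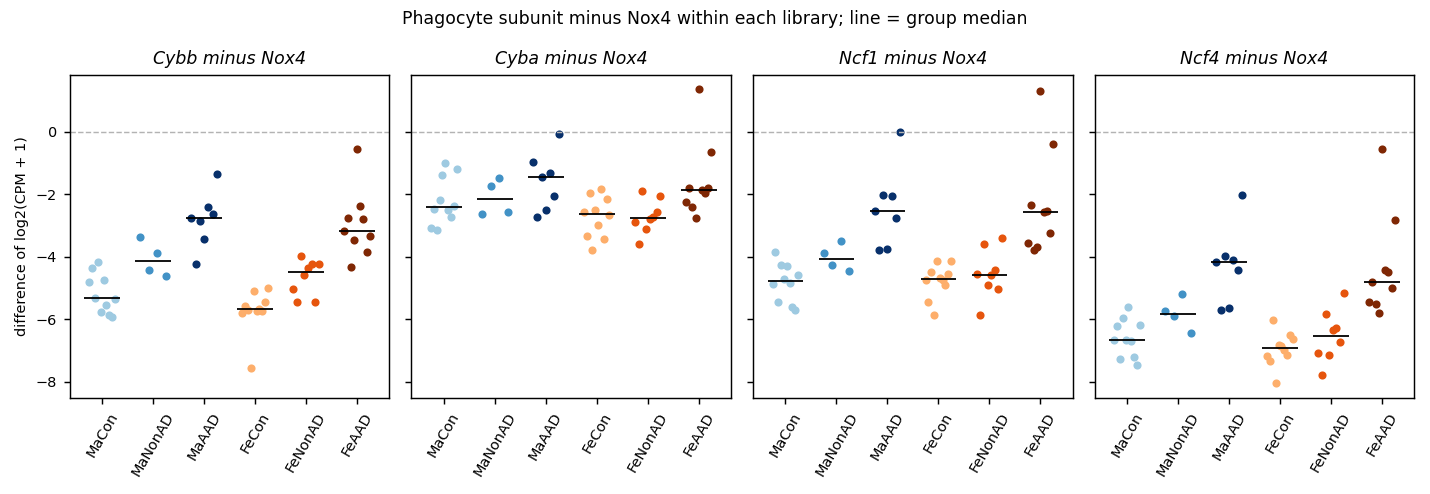
Difference of log2(CPM + 1) between each of 4 phagocyte subunits and Nox4 within each library, by group, with a line at the group median and a dashed line at 0. FeAAD5 is the highest point in all 4 panels, and the AAD medians of Cybb are -3.17 in females and -2.77 in males.

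The subunits of the phagocyte oxidase did not keep 1 ratio to each other. Ncf4 minus Ncf1 had group medians from -2.20 (FeCon) to -1.77 (MaCon) on the log2 scale with 1 CPM added, and from -2.81 (FeCon) to -1.99 (MaNonAD) with 0.1 CPM added. Ncf1 minus Cybb had a median of 0.94 in FeCon, 0.09 in FeNonAD and 0.42 in FeAAD, and 0.36, 0.17 and 0.35 in the male groups. FeAAD9 stood apart at 2.94, with 85.6 CPM of Ncf1 and 10.3 of Cybb. In that library the neutrophil markers summed to 203 CPM and the B cell markers to 28.6, the highest B cell sum of all 48 libraries, while its macrophage sum (1071 CPM) lay in the lower part of the FeAAD range.

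Across the 48 libraries, with group means removed, the genes whose levels deviated most alike with Cybb were Adgre1 (r = 0.888), Csf1r (0.849), the receptor for macrophage colony-stimulating factor, and Tlr7 (0.828), an endosomal Toll-like receptor. For Ncf1 they were Ncf4 (r = 0.916), Itgb2 (0.914), the common chain of the leukocyte integrins, and Sirpa (0.910). Ncf4 went most with Tyrobp (0.947), a myeloid signalling adaptor, Alox5ap (0.938) and Cotl1 (0.938), and without MaAAD7 and FeAAD5 these 3 were 0.905, 0.880 and 0.897. Nox4 went most with Ccpg1 (0.925), Tmtc1 (0.903) and Crebl2 (0.898). Cyba went most with Rack1 (0.938), Clta (0.937) and Rhog (0.935). These values describe libraries that share their tissue and its mixture of cells, and they carry no p-value. The neutrophil gene Csf3r correlated at 0.880 with Ncf1, 0.860 with Ncf4 and 0.35 with Cybb, and S100a8 at 0.752 with Ncf1 and 0.152 with Cybb. Without MaAAD7 and FeAAD5 the Csf3r values were 0.779 and 0.725 and that of S100a8 with Ncf1 was 0.527, and without MaNonAD1 and FeAAD9 Csf3r and S100a8 stood at 0.502 and 0.321 with Cybb.

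Of the 12 macrophage markers 10 rose in FeAAD against FeCon and 10 in MaAAD against MaCon, and Mertk, an engulfment receptor, fell in both (log2 -0.59 and -0.72), while Cd163 did not pass. All 8 general leukocyte markers rose in both sexes, as did 6 of the 7 tested neutrophil markers in females and 5 of 7 in males. Of the 5 B cell markers 5 rose in females (median log2 2.35) and 3 in males (median 1.24). Of all tested genes 23.8% rose in the female comparison and 18.9% in the male one. The red cell markers summed to 235 to 2134 CPM in 8 FeAAD libraries, 26920 in FeAAD2, 143 to 703 in FeCon, 294 to 2123 in MaAAD and 208 to 1397 in MaCon. The remaining 3 neutrophil markers were near 0, with at most 7 counts of Ly6g, 11 of Camp and 3 of Elane in any library. Whether more leukocytes account for the rise of Cybb, Ncf1 and Ncf4 was not tested.

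**Figure D5:**
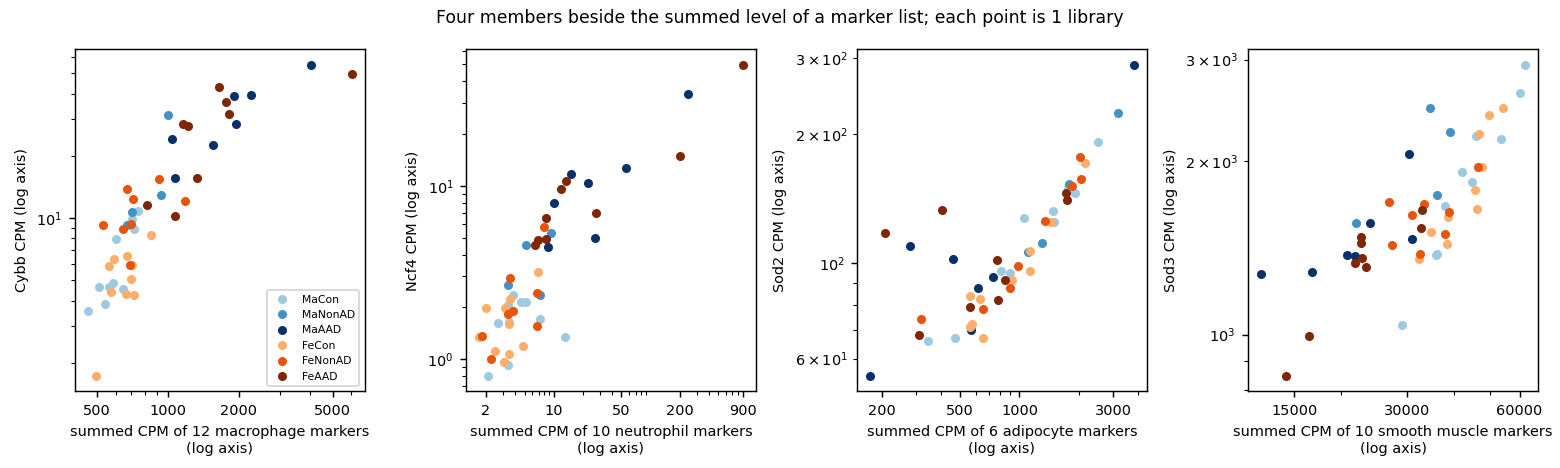
Level of 4 members (CPM, log axis) against the summed level of a marker list (CPM, log axis), 1 point per library coloured by group. Cybb is plotted against macrophage, Ncf4 against neutrophil, Sod2 against adipocyte and Sod3 against smooth muscle markers, and FeAAD5 (6008 CPM of macrophage and 891 of neutrophil markers) is the rightmost point of the first 2 panels.

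Among the dismutases only Sod3 passed in any comparison. Sod3 ran from 1353 to 2473 CPM in FeCon (median 1716), 1379 to 1951 in FeNonAD (median 1623) and 848 to 1643 in FeAAD (median 1357). In MaCon it ran from 1041 to 2937 CPM (median 1879) and in MaAAD from 1273 to 2058 (median 1374), and the MaNonAD libraries held 1562, 2243, 2477 and 1745. The groups overlapped, with 4 of 9 FeAAD libraries below every FeCon library and none of the 7 MaAAD libraries below every MaCon library. Sod3 fell by 0.47 on the log2 scale in FeAAD against FeCon (SE 0.15, adjusted p = 0.00765 by edgeR), and the 48 fits that each left out 1 library gave between -0.52 and -0.41. The male difference was log2 -0.37 (SE 0.16, adjusted p = 0.062 by edgeR). It passed without MaCon1, MaCon2, MaCon4, MaAAD3 or FeAAD5, at adjusted p between 0.0184 and 0.0491 by edgeR. The genes that deviated most alike with Sod3 were Ecm1 (r = 0.942), Nucb1 (0.912) and Spint2 (0.911). The smooth muscle actin gene Acta2 stood at 0.804 and the smooth muscle gene Myh11 at 0.482. The fall of Sod3 in FeAAD went with that of the smooth muscle markers and with higher fibroblast sums. The fibroblast list had a median log2 fold change of -0.15 there, and the part of either list was not tested.

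Sod1 did not pass in any of the comparisons. Its median was 158 CPM in FeCon, 131 in FeNonAD and 129 in FeAAD, with 112 to 233, 109 to 172 and 97.6 to 180 as the ranges. In males it was 165 CPM in MaCon (122 to 246) and 119 in MaAAD (90.8 to 329), and 143, 265, 208 and 142 in the MaNonAD libraries. In MaAAD 5 of 7 libraries lay below every MaCon library and MaAAD1 lay above all of them. The male difference of log2 -0.27 (SE 0.19, adjusted p = 0.272 by edgeR) turned on that library, without which Sod1 was lower by log2 -0.58 (adjusted p = 0.00303 by edgeR) against MaCon and by -0.71 (adjusted p = 0.0176 by edgeR) against MaNonAD. Its closest genes were Ndufa13 (r = 0.962), a subunit of respiratory complex I, Ccs (0.940), the chaperone that loads copper into the Sod1 enzyme, and Uqcr11 (0.935).

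Sod2 likewise passed in none. Its median was 87.6 CPM in FeCon (67.0 to 171), 112 in FeNonAD (74.0 to 177) and 102 in FeAAD (68.2 to 146). In males it was 126 CPM in MaCon (65.8 to 192) and 93.0 in MaAAD (54.7 to 289), and the MaNonAD libraries held 106, 223, 153 and 112. The approximate 95% interval of the log2 difference was -0.32 to 0.60 for FeAAD against FeCon and -0.54 to 0.44 for MaAAD against MaCon. In males the library with the most Sod2 in each group also had the highest adipocyte sum of its group, MaAAD1 with 3801 CPM over the 6 adipocyte markers, MaNonAD2 with 3157 and MaCon2 with 2498. In females this held in FeCon (FeCon8, 2161 CPM), but FeNonAD5 and FeAAD8, with the most Sod2, had sums of 2034 and 1716 against 2063 in FeNonAD3 and 1736 in FeAAD4. Sod2 deviated most alike with Cox5a (r = 0.973), Cycs (0.965) and Ndufab1 (0.964), all 3 of mitochondrial respiration, and its values with the brown fat gene Ucp1 and the adipocyte gene Adipoq were 0.824 and 0.814. The part of adhering fat in the Sod2 levels was not tested.

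The sexes were compared group by group and in the size of their changes. No member passed in MaCon against FeCon, MaNonAD against FeNonAD or MaAAD against FeAAD, where 14.3%, 0.0624% and 0.0901% of all genes passed by edgeR. The only member with an unadjusted p under 0.05 in these 3 was Sod1, in MaNonAD against FeNonAD (log2 0.51, SE 0.22, adjusted p = 0.72 by edgeR), and DESeq2 called none. Tested as a difference of differences between males and females, no member passed for NonAD against Con, AAD against Con or AAD against NonAD (0.416%, 1.34% and 0% of all genes by edgeR), none had an unadjusted p under 0.05, and DESeq2 called none. For AAD against Con the male minus female difference in log2 fold change was -0.09 for Cybb (approximate 95% interval -0.88 to 0.70), -0.21 for Cyba (-0.86 to 0.44), 0.35 for Nox4 (-0.20 to 0.90) and 0.10 for Sod3 (-0.32 to 0.52). The calls of Nox4, Cyba and Sod3 in females and not in males are therefore not shown to differ between the sexes.

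Other genes of the same chemistry were followed as lists. Of the 13 tested partners of the oxidases, 4 rose and 1 fell in FeAAD against FeCon, and 4 rose and 2 fell in MaAAD against MaCon. Of all tested genes 23.8% rose and 20.6% fell in the female comparison and 18.9% rose and 16.1% fell in the male one. Rac2, the haematopoietic Rac GTPase, rose by log2 2.73 in females (adjusted p = 8.81e-08 by edgeR) and 2.29 in males (adjusted p = 4.42e-06 by edgeR). Hvcn1, the voltage-gated proton channel that balances charge during the burst, rose by log2 1.51 in females (adjusted p = 6.37e-07 by edgeR) and 1.18 in males (adjusted p = 7.94e-05 by edgeR). Duox1, a dual oxidase of epithelia, was low, at 0.0664 to 1.98 CPM over all libraries, and its log2 differences of -0.23 and 0.29 did not pass. Without FeAAD5 the female Rac2 value was log2 2.13 (adjusted p = 4.41e-07 by edgeR).

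Of the 6 tested genes that supply copper, zinc or manganese, 3 rose and 1 fell in females (all genes, 23.8% and 20.6%) and 3 rose in males (all genes, 18.9%). Slc31a1, the copper importer CTR1, rose by log2 0.59 in FeAAD and 0.85 in MaAAD, and Atox1, a copper chaperone, by 0.59 in FeAAD (0.35 with adjusted p = 0.0671 by edgeR without FeAAD5), with 0.25 in MaAAD, which did not pass. Slc39a8, an importer of zinc and manganese, fell by 0.88 on the log2 scale in FeAAD (adjusted p = 0.00406 by edgeR) and rose by 0.66 in MaAAD (adjusted p = 0.0476 by edgeR). The male call was lost without any one of 16 libraries, with a log2 value of 0.44 (adjusted p = 0.202 by edgeR) without MaAAD2. The median log2 fold change over this list was 0.23 in females and 0.39 in males.

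Of the 19 genes that remove peroxide, 8 rose and 1 fell in females (all genes, 23.8% and 20.6%) and 6 rose and 1 fell in males (all genes, 18.9% and 16.1%), with a median of 0.15 and 0.12. Glrx, glutaredoxin, rose by log2 1.26 in FeAAD (adjusted p = 5.97e-06 by edgeR) and 0.71 in MaAAD (adjusted p = 0.012 by edgeR, and 0.0589 without MaAAD7). Gsr, glutathione reductase, rose by 0.76 and 0.85, and Gpx7, a peroxidase of the endoplasmic reticulum, by 0.84 and 0.57. Cat, catalase, had log2 differences of 0.18 and -0.02 and passed in neither sex.

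Of 16 genes of the NRF2 pathway, the programme that answers oxidants, 3 rose and 2 fell in females, where 23.8% and 20.6% of all genes did, and 7 rose and 1 fell in males, where 18.9% and 16.1% did, with medians of 0.04 and 0.20. Hmox1, which degrades haem, ranged from 12.5 to 146 CPM in FeCon (median 21.9) and 24.4 to 1046 in FeAAD (median 62.3), and from 9.69 to 18.7 in MaCon (median 16.5) and 28.5 to 859 in MaAAD (median 224). All 7 MaAAD libraries were above all MaCon libraries (all genes, 6.14%), while the female groups overlapped. The part of the red cell sums given above in Hmox1 was not tested. Hmox1 rose by log2 2.31 in FeAAD (SE 0.56, adjusted p = 0.000769 by edgeR) and 4.29 in MaAAD (SE 0.63, adjusted p = 5.75e-07 by edgeR), and by 1.25 in FeAAD without FeAAD5 (adjusted p = 0.0354 by edgeR). Slc7a11, the cystine importer, rose by log2 3.23 in FeAAD and 3.21 in MaAAD, and by 2.40 without FeAAD5 and 2.13 without MaAAD5, all at adjusted p of 0.00118 or less by edgeR. Txnrd1, a thioredoxin reductase, rose by 0.80 in MaAAD (adjusted p = 1.2e-05 by edgeR), with 0.15 in FeAAD, which did not pass. The male minus female difference for Hmox1 was log2 1.98 (adjusted p = 0.205 by edgeR), and 3.04 without FeAAD5 (adjusted p = 0.0158 by edgeR). For Txnrd1 it was 0.65 (adjusted p = 0.0708 by edgeR), with adjusted p = 0.0368 by DESeq2 and 0.015 to 0.0491 by edgeR without MaAAD1, MaAAD4, FeCon2, FeCon3, FeCon7, FeAAD5 or FeAAD9.

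Of 10 tested genes for other sources of oxidants, 1 rose and 3 fell in females (all genes, 23.8% and 20.6%) and 3 rose and 2 fell in males (all genes, 18.9% and 16.1%). Alox5, 5-lipoxygenase, rose by log2 0.75 in FeAAD and 1.06 in MaAAD. Cyp1b1, a cytochrome P450, rose by 0.90 in MaAAD (adjusted p = 0.00301 by edgeR), with 0.50 in FeAAD (adjusted p = 0.0718 by edgeR, and 0.0269 to 0.0478 without FeCon10, FeNonAD8, FeAAD3, FeAAD8 or FeAAD9). Xdh, xanthine dehydrogenase, rose by 0.82 in MaAAD (adjusted p = 0.000474 by edgeR), with 0.00 in FeAAD.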

How the data were processed

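Aortic RNA was made into strand-specific mRNA libraries and sequenced on a DNA nanoball platform, per the study's methods. The authors deposited 1 table of RSEM expected counts (18782 genes, 48 libraries), and the submitters' processing notes name Bowtie2, RSEM 1.3.1 and GRCm39. Of its values 4.99% were not whole, none of them in the 9 genes described here, so the expected counts as deposited were rounded. Genes were filtered with filterByExpr (14431 kept), scaled by TMM and fitted with edgeR 4.0.16 (robust quasi-likelihood, 1 mean per group over all 48 libraries, R 4.3.3). A gene passed at an adjusted p (Benjamini-Hochberg) under 0.05. SE is the log2 fold change divided by the square root of F, and approximate 95% intervals are 1.96 SE. DESeq2 1.42.0 was an alternative. Between-gene levels used the longest GENCODE transcript. Promoters are RefSeq's (GRCm38.p6; 7 of the 9 genes matched), a build other than the table's, which carries no coordinates. Each library is 1 mouse, and mice of a group shared cages, per the study's methods. The genes and lists were chosen with earlier results of these data known. From each context list the 3 genes with the largest change among those that passed in AAD against Con, averaging at least 10 counts, were named, with Rac2, Duox1, Cat and Hmox1 whatever their values. A gene that this rule also names is not reported here. Fits were tested on simulated data.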

Additional observations from a re-analysis of the deposited data

Results flagged for a closer look

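Within a group, 7 of 48 gene and group combinations (8 genes in 6 groups, on the log2(CPM + 1) scale) had a library apart from the others by Dixon's 95% criterion. Chance flags about 1 in 20 such groups. FeCon4 had the lowest Cybb of its group, 1.73 CPM against 4.24 to 8.26 in the other FeCon libraries, and the highest Nox4, 516 CPM against 262 to 370. FeAAD5 had the highest Cyba, 189 CPM against 47.2 to 71.8, and the highest Ncf4, 49.7 CPM against 4.58 to 14.9, and also the highest macrophage, leukocyte and neutrophil marker sums of FeAAD. MaAAD1 had the highest Sod1, 329 CPM against 90.8 to 140, and Sod2, 289 CPM against 54.7 to 110, beside the highest adipocyte marker sum of all libraries. MaAAD3 had the highest Sod3, 2058 CPM against 1273 to 1560.

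For 2 listed genes the change from Con to AAD differed between the sexes by a test of that difference (edgeR, 1.34% of all genes passed). Slc39a8, the zinc and manganese importer, fell in females and rose in males, a male minus female log2 difference of 1.53 (SE 0.36, adjusted p = 0.0209 by edgeR), which was 1.32 (adjusted p = 0.0604 by edgeR) without MaAAD2. Its male rise alone did not pass without a filter on low counts, in a fit to the compared groups or in 16 fits that left out 1 library. Gclc, the catalytic subunit of glutamate-cysteine ligase, named here because its difference passed, fell by 0.78 on the log2 scale in FeAAD (adjusted p = 2.87e-06 by edgeR), with 0.03 in MaAAD, a difference of 0.81 (SE 0.19, adjusted p = 0.0174 by edgeR). Both genes were already lower in MaCon than in FeCon, Slc39a8 with a log2 difference of -0.85 (adjusted p = 0.0159 by edgeR) and Gclc with -0.79 (adjusted p = 2.87e-05 by edgeR).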

How the results depend on the processing

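Over the 8 tested genes and 12 comparisons, 570 of 576 values under another test, scaling, filter, estimation, block or set of groups kept their side of the threshold, 3 lost a call, 3 gained one and none reversed. Of 4608 values from fits leaving out 1 library, 4564 kept it, 22 lost it, 22 gained it and none reversed (43 of the 48 were added after seeing the data). Of 324 and 2592 such values for the named context genes, 319 and 2560 kept it and none reversed. Adding a minimum fold (log2 1 in either direction) left 3 genes called in FeAAD against FeCon. In MaNonAD against MaCon the count of 1 became 0 under the replicate block (Cybb, log2 1.29, adjusted p = 0.104 by edgeR) and 2 in a fit to those groups, and 0 to 1 without single libraries. In MaAAD against MaNonAD the count of 0 became 2 by DESeq2 and 0 to 3 without single libraries. Replicate numbers did not pair the libraries by their deviations, so they share only a number. The block also took Slc39a8 in MaAAD out (log2 0.59, adjusted p = 0.11 by edgeR) and brought the Txnrd1 sex difference in (adjusted p = 0.0218 by edgeR). With a pseudocount of 0.1 the mean of Ncf4 minus Nox4 moved from -6.60 to -7.22 in MaCon and from -6.95 to -7.59 in FeCon. The same pseudocount moved the median of Ncf4 minus Ncf1 in FeCon from -2.20 to -2.81. The causes were not tested.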
